A study of Mus musculus with 24 samples.

Results

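In all, 6 proteases of mast cells and 3 genes of type 2 mucosal immunity were followed through 24 RNA-Seq libraries of mouse heart, stomach, muscle and tongue. They include *Mcpt1* and *Mcpt2*, chymases typical of mucosal mast cells, and *Mcpt4*, *Cma1* and *Tpsb2*, typical of connective-tissue mast cells. *Cpa3*, a gene of mast cells in general, was counted here with the connective-tissue proteases, and *Chil3*, *Chil4* and *Retnla* complete the list. These are 9 of the 54532 genes in each deposited table, found by matching each Ensembl identifier to its symbol in GENCODE M21, and all 9 were found. The genes were chosen by their levels in these same libraries, across tissues and between SN-011 and control, so every level and every difference given for them here is a description and none of it is independent support for the choice.

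All mice were Trex1-/- on a C57BL/6J background, lacking a DNA exonuclease whose loss lets self-DNA activate the cGAS-STING pathway throughout the body. In each tissue 3 samples came from mice given SN-011, a small-molecule antagonist of STING, and 3 from control mice. The labels give SN-011 at 5 mg/kg, 3 doses per week for 4 weeks, and call the controls untreated, whereas the methods of the study describe another dose and schedule in mice a month old and a vehicle for the controls. There was no wild-type group, and the controls carried the same deletion. Total counts were 14253416 to 18443329 per sample, so that 3 counts, taken as the smallest amount that can be shown, corresponded to 0.163 to 0.210 CPM, the count of a gene scaled to the size of its library.

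Some features of the libraries touch the values below. Replicate 1 of the controls held at least 3060 *Xist* counts in each of the 4 tissues and at most 3 of the Y-linked *Ddx3y*, while the other 20 samples held at most 20 and at least 825, as in female mice, where the others had the pattern of males. The second SN-011 library of the muscle had 11546 genes with a count, where all other libraries had 19798 or more. Genes of the gastric glands had counts in heart, muscle and tongue, most of all in control replicates 2 and 3. No library had a *Trex1* count, but this gene lies within *Atrip* on the same strand, so the 0 does not check the genotype.

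Mast cells store proteases in granules bound to proteoglycan and release them when IgE or other signals are received. Mucosal mast cells of the gut lining depend on T cell cytokines and carry the chymases MCPT1 and MCPT2. Connective-tissue mast cells of the skin, muscle and submucosa carry MCPT4, the chymase CMA1 and the tryptase encoded by *Tpsb2*. Carboxypeptidase A3, encoded by *Cpa3*, is a protease of mast cells in general. *Chil3* and *Chil4* encode chitinase-like lectins without chitinase activity, known as Ym1 and Ym2, and *Retnla* encodes the resistin-like protein RELMα. All 3 are known targets of IL-4 and IL-13 in macrophages or epithelium.

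The 4 chymase genes lay together within 120.9 kb of chromosome 14 (GRCm38), from the start of *Cma1* at 55941451 to the end of *Mcpt4* at 56062313. *Mcpt1* occupied chr14:56017971-56020384 and *Mcpt2* chr14:56042041-56044642, both on the plus strand, and *Mcpt4* (chr14:56059629-56062313) and *Cma1* (chr14:55941451-55944675) lay on the minus strand. In coding sequence *Mcpt1* was nearer to *Mcpt4* of the connective-tissue class, with 86.5% identity, than to *Mcpt2* of its own class, with 80.4%, and *Cma1* shared 59.4% to 62.3% with the other 3. Even so, none of the 150-base stretches of any member's transcripts stood in a transcript of another gene. Reads of 150 bases without mismatches, the length that the methods of the study give, could thus be told apart, and shorter reads were not checked. Promoters are given in the RefSeq set for 7 of the 9 members, and the 250 bases before the start of 3 chymases are shown because 2 of these genes with different tissue patterns had nearly the same sequence there. Capitals mark AGATAA or TGATAA on either strand, the letters known to be bound by GATA factors such as GATA2 of mast cells, and the strand of each gene reads 5′ to 3′.
Mcpt1: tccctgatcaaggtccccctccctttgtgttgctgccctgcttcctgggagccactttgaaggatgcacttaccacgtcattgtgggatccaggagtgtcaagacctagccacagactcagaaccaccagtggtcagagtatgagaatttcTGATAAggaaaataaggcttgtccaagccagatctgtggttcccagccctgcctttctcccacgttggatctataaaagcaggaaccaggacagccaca
Mcpt4: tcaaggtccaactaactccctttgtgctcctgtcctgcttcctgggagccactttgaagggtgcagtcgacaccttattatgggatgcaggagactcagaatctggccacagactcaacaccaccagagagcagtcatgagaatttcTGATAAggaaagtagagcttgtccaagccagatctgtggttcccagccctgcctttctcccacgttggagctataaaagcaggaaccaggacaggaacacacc
Cma1: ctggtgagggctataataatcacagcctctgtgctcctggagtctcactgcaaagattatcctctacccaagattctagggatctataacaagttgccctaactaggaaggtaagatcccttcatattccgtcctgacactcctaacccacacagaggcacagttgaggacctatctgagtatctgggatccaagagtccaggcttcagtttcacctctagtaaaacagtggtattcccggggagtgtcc
The stretches are chr14:56017714-56017963 on the plus strand for *Mcpt1*, and chr14:56062311-56062560 and chr14:55944676-55944925 on the minus strand for *Mcpt4* and *Cma1*, in GRCm38.p6. The *Mcpt1* and *Mcpt4* stretches were 81.5% identical, with tgataa at −99 and −103 from the start, and the *Cma1* stretch held neither form. Over the whole window of 300 bases, from 250 before to 50 after the start, AGATAA or TGATAA was found in 5 of the 7 members. The 5 were *Cpa3*, *Chil3*, *Chil4*, *Mcpt1* and *Mcpt4*, and 18.6% of the 32851 promoters of the set held either form. The *Chil3* and *Chil4* stretches were 72.0% identical, so with the alike *Mcpt1* and *Mcpt4* the 5 are not independent of one another. The E-box letters CANNTG stood in 4 of the 7, against 72.3% of all, and TTC and GAA with 4 bases between them, the form bound by STAT6, in *Retnla* alone, against 6.95% of all. No match overlapped one of another motif.

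*Mcpt1* and *Mcpt2* were genes of the stomach. Counts of *Mcpt1* in the stomach controls were 382, 609 and 367, and those of *Mcpt2* were 364, 492 and 376. In CPM, normalised by the trimmed mean of M-values over all 24 samples, the stomach controls averaged 24.7 ± 8.11 for *Mcpt1* and 22.4 ± 5.32 for *Mcpt2* (SD, n = 3). The next tissue averaged 0.402 CPM for *Mcpt1*, in the tongue, and 0.323 CPM for *Mcpt2*, in the heart, and no sample of these reached the lowest stomach control. The levels in heart, muscle and tongue could not be put in order, since these groups overlapped for both genes.

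The few mucosal chymase counts outside the stomach lay where stomach genes did. Of the 18 libraries of heart, muscle and tongue, the 6 with at least 782 counts of *Gkn1*, a secreted protein of the gastric surface, held 61 *Mcpt1* and *Mcpt2* counts together, and the other 12, with at most 309, held 5. The 6 were the control replicates 2 and 3 of the 3 tissues. For every 1000 *Gkn1* counts these 6 held 0.98 to 3.28 *Mcpt1* and *Mcpt2* counts, and the stomach controls held 1.27 to 4.13, so that the ranges overlapped. *Chil4*, with at least 1916 counts in each stomach control, had at most 2 in any heart or muscle control. The SN-011 libraries of the 3 tissues had at most 201 *Gkn1* counts and at most 2 *Mcpt1* and *Mcpt2* counts each. The source of the *Mcpt1* and *Mcpt2* counts outside the stomach was not tested. Levels of these 2 genes outside the stomach are therefore given with no fold change between SN-011 and control.

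**Figure D1:**
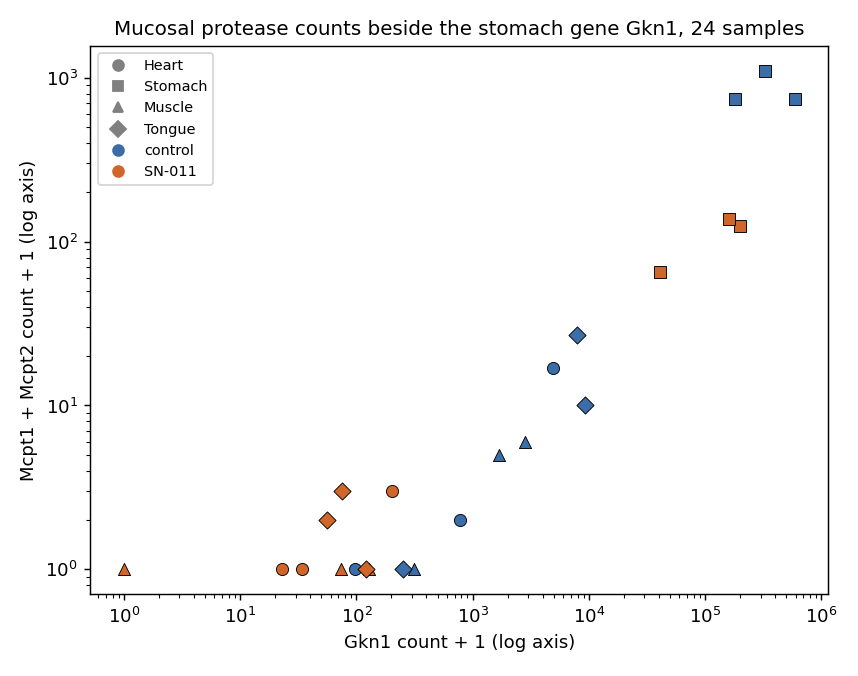
Each point is 1 of the 24 libraries, with the count of *Gkn1* plus 1 on the x axis and the summed count of *Mcpt1* and *Mcpt2* plus 1 on the y axis, both on log scales, shaped by tissue and coloured by treatment. Outside the stomach, the libraries with the most mucosal chymase counts, up to 26, were controls with 782 or more *Gkn1* counts.

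The connective-tissue proteases were present at low levels in all 4 tissues, with the highest control means in tongue or stomach. *Mcpt4* counts in the tongue controls were 314, 54 and 36, against 28, 31 and 20 in those of the stomach. The muscle controls held 16, 4 and 4, and the heart controls 18, 9 and 7. The tongue had the highest mean of *Mcpt4*, 6.59 ± 7.21 CPM, and of *Cma1*, 4.60 ± 4.82 CPM, but in both genes its range overlapped that of the stomach, whose *Cma1* mean was 4.505 ± 0.339 CPM (n = 3 each). *Cpa3*, which trims peptides after chymase has cut them, was highest in the stomach at 7.92 ± 0.879 CPM, above every tongue control, where its mean was 1.21 ± 1.13 CPM. *Tpsb2* averaged 5.94 ± 2.12 CPM in the stomach and 3.18 ± 3.73 CPM in the tongue, with overlap. In heart and muscle the control means of these 4 genes were between 0.150 and 0.981 CPM, and heart and muscle overlapped for each.

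Much of the tongue's level came from 1 control. Control replicate 1 of the tongue, one of the libraries with *Xist* counts, held 738 counts over the 4 connective-tissue proteases, where the other controls held 130 and 87. Each tissue has its own library of that number, and it was the highest of the 3 controls for all 4 of these genes in tongue and muscle, for 3 of 4 in the stomach and for 2 of 4 in the heart. For *Mcpt1* and *Mcpt2* the library numbered 1 was the highest control in no tissue. Whether the sex of the animal has a part in this was not tested.

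Per kilobase of exon, so that genes can be compared, *Mcpt1* and *Mcpt2* together reached 49.8, 55.5 and 30.9 CPM per kb in the stomach controls, and the 4 connective-tissue proteases together 16.3, 13.4 and 13.5. The log2 ratio of the first sum to the second, with 0.1 CPM per kb added to each, was 1.61 ± 0.427 in the stomach controls (n = 3). All 3 stomach controls were on the mucosal side. In the heart, muscle and tongue controls the ratio averaged −2.32 ± 2.03, −2.53 ± 2.49 and −4.34 ± 3.35, and all 9 samples were below 0, the highest being heart control replicate 2 at −0.011. That library had 4952 *Gkn1* counts. Among the 4 chymases and the other proteases, *Mcpt1* ranked first per kilobase in the stomach controls at 24.3 ± 8.002 CPM per kb, and *Mcpt4*, at 1.33 ± 0.50, ranked last.

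**Figure D2:**
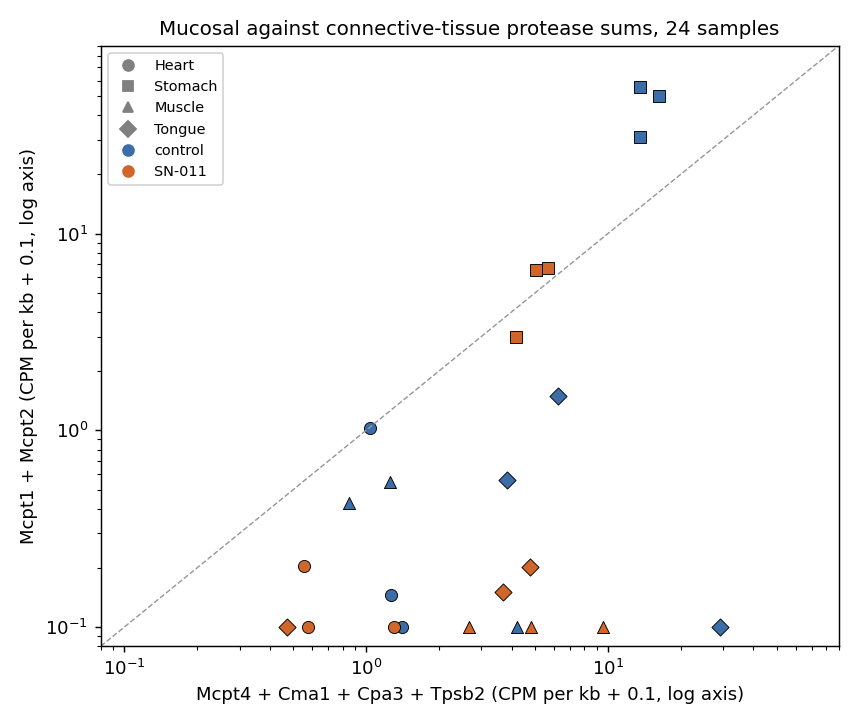
Each point is 1 of 24 samples, with the sum of the 4 connective-tissue proteases on the x axis and that of the 2 mucosal chymases on the y axis, in CPM per kb of exon plus 0.1 on log scales. The dashed line marks equal sums, and the 3 stomach controls lie above it with log2 ratios of 1.19 to 2.04, while the SN-011 stomachs lie near it.

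After SN-011 all 6 proteases had lower means in the stomach, the mucosal chymases by the most. *Mcpt1* counts were 11, 58 and 55 in the SN-011 stomachs, against the 382, 609 and 367 of the controls, a log2 fold change of −3.49 ± 0.60 (edgeR estimate ± SE). *Mcpt2* counts were 53, 65 and 82, a log2 fold change of −2.68 ± 0.33. For both genes every SN-011 sample was below every control. In the quasi-likelihood test of edgeR, adjusted by Benjamini-Hochberg for 17031 genes, the adjusted p was 0.0621 for *Mcpt1* and 0.0618 for *Mcpt2*, above the threshold of 0.05.

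The connective-tissue class was lower by less. *Cpa3* counts were 108, 141 and 207 in the controls and 36, 67 and 63 after SN-011, and *Tpsb2* counts were 120, 102 and 97 and then 25, 36 and 54. *Cma1* counts were 69, 79 and 107 and then 45, 11 and 33. The SN-011 samples of these 3 genes did not overlap the controls in CPM, with log2 fold changes of −1.46 ± 0.40, −1.56 ± 0.47 and −1.58 ± 0.54. *Mcpt4*, at 28, 31 and 20 counts and then 6, 16 and 6, overlapped by a small margin in CPM, with −1.56 ± 0.71. The adjusted p-values of the 4 in edgeR were 0.0972, 0.110, 0.133 and 0.221.

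The log2 ratio of mucosal to connective-tissue sums was 0.040 ± 0.462 in the SN-011 stomachs, with values of −0.488, 0.369 and 0.240, all below the lowest control at 1.19. The sums themselves were 5.29 ± 2.08 and 4.86 ± 0.738 CPM per kb, against 45.4 ± 12.9 and 14.4 ± 1.60 in the controls. In whole tissue, fewer mast cells and less RNA per mast cell cannot be told apart.

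Of the 9 members 8 passed the filter on low counts in the stomach, all but *Chil3*. *Mcpt4* passed it only through its controls, where it was high, with 6, 16 and 6 counts after SN-011. None of the 8 had an adjusted p under 0.05 in edgeR, where 0 of all 17031 genes (0%) did. Of the 8, 6 had an unadjusted p under 0.05 and a lower level, as 11.4% of all genes had, and 6 had all SN-011 samples below all controls, as 16.1% of all genes had. DESeq2 put 6 of the 8 under an adjusted p of 0.05, edgeR's exact test 5, and the quasi-likelihood test without control replicate 1 put 2, *Chil4* and *Mcpt2*. The share of all genes that passed under these alternatives is not given here, so these counts cannot be set against it. Over the 14 alternatives, the adjusted p of *Mcpt2* ran from 1.09e-10 in DESeq2 to 0.241 and that of *Mcpt1* from 1.58e-06 to 0.241, with the log2 fold change negative in all.

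Markers of other cell types also differed between the stomach groups. The summed level of 6 genes of squamous epithelium, which lines the forestomach, was 97 to 213 CPM in the controls and 444 to 1307 CPM after SN-011, without overlap. The squamous keratin gene *Krt13* had a log2 fold change of 2.21 ± 0.39 and *Krt5* of 2.37 ± 0.52, with adjusted p-values in edgeR of 0.0621 and 0.0731. The summed level of 8 gastric gland genes was 40423 to 141429 CPM in the controls and 17309 to 101694 CPM after SN-011, and overlapped. Mesothelium, the outer lining of the organ, gave a sum over 3 genes of 15.7 to 35.2 CPM in the controls and 46.0 to 177 CPM after SN-011, without overlap, with log2 fold changes of 2.79 ± 0.53 for *Msln* and 2.80 ± 0.74 for *Wt1* (edgeR, adjusted p = 0.0665 and 0.0901). The sum of 8 neutrophil genes was 0.761 to 2.59 CPM and then 3.95 to 9.11 CPM, also without overlap. SN-011 replicate 1, with the highest squamous and the lowest glandular sum, had the lowest CPM of the 3 SN-011 stomachs for 5 of the 6 proteases and the highest for *Cma1*. Its *Mcpt1* level was 0.522 CPM against 3.14 and 2.75, and its *Chil4* level was 28.1 CPM against 28.7 and 25.0. The part of these differences in the protease values was not tested. Of all genes, 16.1% had every SN-011 stomach below every control, and the share above is not given here. Upward non-overlap in the stomach, here and in the paragraphs below, thus cannot be set against such a share.

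**Figure D3:**
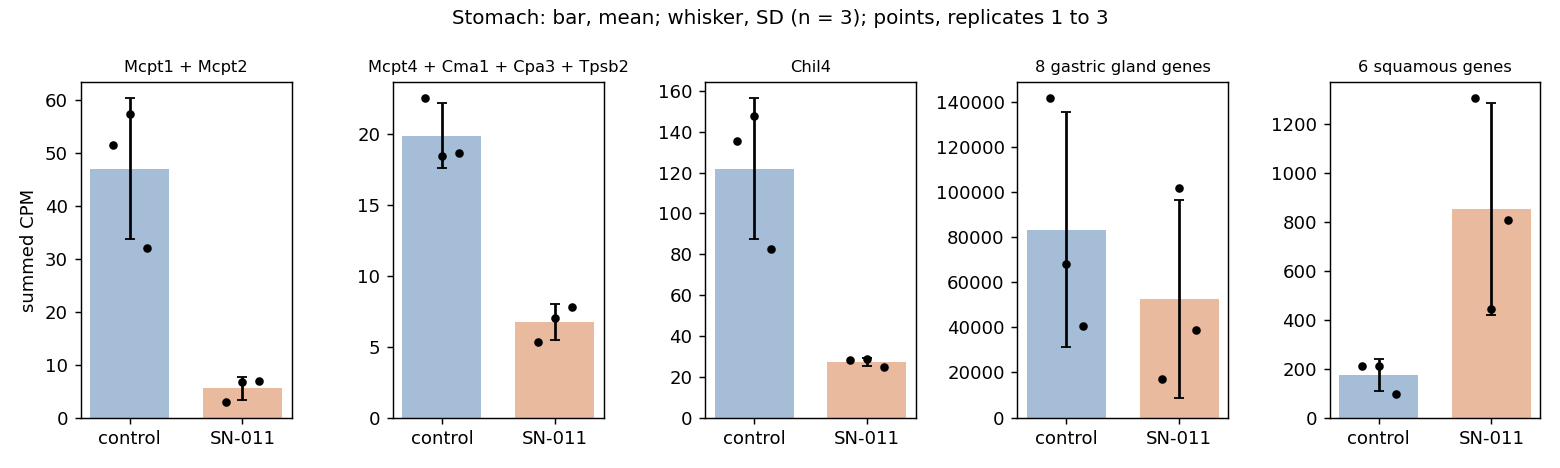
Bars give the mean summed CPM of 3 stomach samples and whiskers the SD, with 1 point per sample in the order of the replicate numbers, for the mucosal chymases, the connective-tissue proteases, *Chil4*, 8 gastric gland genes and 6 squamous genes, each on its own axis from 0. The first 3 sums do not overlap between groups and are lower after SN-011, the glandular sum overlaps, and the squamous sum is higher after SN-011.

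Other genes of mast cells did not all share the direction of the proteases in the stomach. *Kit*, the stem cell factor receptor that mast cells share with the pacemaker cells of the gut, averaged 20.6 ± 7.73 CPM in the controls and 35.0 ± 5.31 CPM after SN-011. *Hdc*, the histidine decarboxylase that mast cells share with the enterochromaffin-like cells of the gastric gland, averaged 20.0 ± 10.5 and 38.9 ± 5.14 CPM, and *Gata2* 1.88 ± 0.202 and 5.47 ± 0.860 CPM. For all 3 every SN-011 sample was above every control, with adjusted p-values in edgeR of 0.190, 0.174 and 0.0817. *Rgs13*, a G protein regulator of mast cells and tuft cells, was at 12.3 ± 5.80 and 2.97 ± 1.87 CPM, without overlap and with an adjusted p in edgeR of 0.0989. The subunits of the high-affinity IgE receptor were near the floor. *Fcer1a*, too low to test, was at 0.595 ± 0.209 and 0.2499 ± 0.0947 CPM, with every SN-011 sample below every control. *Ms4a2* was at 0.893 ± 0.282 and 0.435 ± 0.360 CPM, with overlap. *Mrgprb2*, a receptor particular to connective-tissue mast cells, had no counts in any stomach sample, and *Tpsab1*, the tryptase beside *Tpsb2*, averaged 4.47 ± 1.17 and 2.84 ± 2.18 CPM with overlap.

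Over the list of 24 mast cell genes outside the members, 15 were tested in the stomach and 0 passed the adjusted threshold in edgeR. At an unadjusted p under 0.05, 3 were higher and 2 lower, where 11.4% of all genes were lower. Of the 15, 4 had all SN-011 samples above all controls and 2 all below, where 16.1% of all genes were below. The shares of all genes that were higher or above are not given here. The median log2 fold change of the 15 was 0.14, beside 0.0043 over all genes tested. In each of the other tissues 11 were tested and 0 passed in edgeR, with 1 higher and 3 lower at an unadjusted p under 0.05 in the heart. The muscle had 2 higher and 0 lower, and the tongue had none either way. Of all genes, 10.8% in the heart and 8.96% in the muscle were higher by this measure, and the shares lower there are not given here. The most abundant of the list, *Srgn*, the proteoglycan core of the granule, and *Ndst2*, which sulfates its heparin, had log2 fold changes of 0.14 ± 0.45 and 0.28 ± 0.22. In the chymase locus *Gzmb*, the cytotoxic granzyme, was the 1 other gene of 11 with enough stomach counts, at 5.27 ± 1.75 and 2.33 ± 0.611 CPM. Genes of basophils, which share some of these proteases, summed to 0.415 to 2.07 CPM over 3 genes in the stomach controls and to at most 0.0541 CPM after SN-011. Eosinophil genes summed to 3.46 to 12.7 CPM over 7 genes in the controls and 1.84 to 5.30 CPM after SN-011, and the groups overlapped.

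In the tongue the connective-tissue proteases also had lower means after SN-011, with a wide spread. *Mcpt4* counts were 314, 54 and 36 in the controls and 23, 32 and 3 after SN-011, a log2 fold change of −2.70 ± 1.00 without overlap in CPM. *Cma1* counts were 213, 47 and 21 and then 32, 43 and 0, and *Tpsb2* counts were 158, 21 and 17 and then 25, 23 and 7, with overlap and log2 fold changes of −1.81 ± 1.19 and −1.74 ± 0.91. The adjusted p-values in edgeR were 0.367, 0.539 and 0.455. *Cpa3* was too low to test, at 53, 8 and 13 counts and then 7, 4 and 0. Without control replicate 1 the log2 fold changes were −1.24 for *Mcpt4*, −0.47 for *Cma1* and −0.085 for *Tpsb2*, so the size of all 3 rested on that library.

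In the muscle the direction was the other for *Tpsb2* and *Mcpt4*. *Tpsb2* counts were 9, 3 and 1 in the controls and 19, 60 and 15 after SN-011, a log2 fold change of 3.28 ± 1.15 without overlap in CPM, and *Mcpt4* counts were 16, 4 and 4 and then 18, 52 and 9, with 2.19 ± 1.10 and overlap. The adjusted p-values in edgeR were 0.284 and 0.422. The highest value of both was in SN-011 replicate 2, the library with counts on few genes, which had 0 counts of *Cma1* and *Cpa3*. Without it the log2 fold changes were 2.14 for *Tpsb2* and 0.96 for *Mcpt4*. After SN-011 the muscle had the highest mean of the 4 tissues for both genes, 3.38 ± 2.91 CPM for *Tpsb2* and 2.86 ± 2.62 CPM for *Mcpt4*, and overlapped the next tissue for each. *Cma1* and *Cpa3* were too low to test in the muscle, and no member but *Chil3* passed the filter in the heart.

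The difference between tissues in the SN-011 change was tested in 1 fit of all 24 samples and 19731 genes, for 6 pairs of tissues and 9 members. *Tpsb2* differed between stomach and muscle, by −4.73 ± 1.28 on the log2 scale (edgeR, adjusted p = 0.0314), where 6.95% of all genes passed the threshold. No other member did in any pair, and *Mcpt4* and *Tpsb2* had an unadjusted p under 0.05 in 3 pairs each, all of them with muscle. Without the second SN-011 library of the muscle the value for *Tpsb2* was −3.76, with an adjusted p in edgeR of 0.0623, and over all alternatives its adjusted p ran from 0.0179 to 0.0949. For *Mcpt1* and *Mcpt2* the difference between stomach and other tissues says little, since their counts elsewhere were at the floor.

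**Figure D4:**
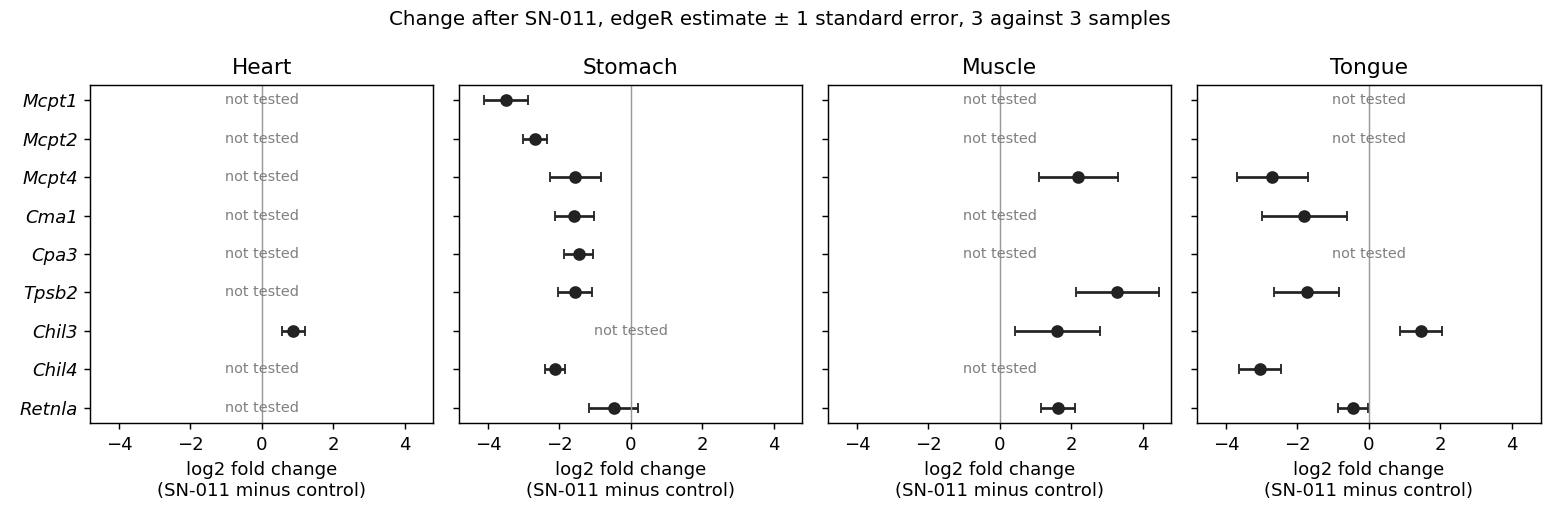
Points give the log2 fold change of SN-011 against control estimated by edgeR for each member that passed the filter on low counts, and whiskers 1 standard error, with 1 panel per tissue and 3 samples in each group. The stomach estimates of the 6 proteases and *Chil4* are all negative, from −3.49 to −1.46, and those of *Tpsb2* and *Mcpt4* in the muscle are positive.

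*Chil3* and *Chil4* lay side by side on the minus strand of chromosome 3, at chr3:106147554-106167564 and chr3:106201490-106219507. Their coding sequences were 94.4% identical, yet no 150-base stretch of their transcripts was shared. The 250 bases before their starts, at chr3:106167565-106167814 and chr3:106219480-106219729, were 72.0% identical and are shown because the levels of the 2 genes differed so widely between tissues, with AGATAA or TGATAA on either strand in capitals.
Chil3: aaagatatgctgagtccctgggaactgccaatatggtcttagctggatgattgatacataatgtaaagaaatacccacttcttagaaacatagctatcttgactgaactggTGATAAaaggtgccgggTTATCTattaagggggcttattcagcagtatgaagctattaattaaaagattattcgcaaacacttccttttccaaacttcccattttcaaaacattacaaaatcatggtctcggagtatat
Chil4: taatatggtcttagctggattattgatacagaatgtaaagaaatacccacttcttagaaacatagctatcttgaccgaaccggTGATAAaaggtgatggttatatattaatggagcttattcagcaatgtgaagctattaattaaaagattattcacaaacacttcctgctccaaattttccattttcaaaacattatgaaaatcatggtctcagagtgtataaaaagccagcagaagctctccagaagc
*Chil3* held 2 matches, at −139 and −122 from the start, and *Chil4* held 1, at −167.

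*Chil4* was abundant in stomach and tongue and close to absent elsewhere. Its counts were 1957, 2829 and 1916 in the stomach controls and 3516, 4577 and 2116 in the tongue controls, and at most 2 in any heart or muscle control. The means were 122 ± 34.5 CPM in the stomach and 177 ± 71.3 CPM in the tongue, which overlapped, and 0.106 ± 0.0149 CPM in the heart. *Chil3* was low in all tissues, from 0.502 ± 0.175 CPM in the stomach controls to 3.06 ± 1.34 CPM in those of the heart, and each tissue overlapped the next in this order. Per kilobase *Chil4* was the most abundant of the 9 members in the stomach and tongue controls, at 43.3 ± 12.3 and 62.9 ± 25.3 CPM per kb.

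After SN-011 *Chil4* had lower counts in both tissues where it was abundant. Its stomach counts were 592, 531 and 500, a log2 fold change of −2.12 ± 0.28, and its tongue counts were 444, 645 and 124, a log2 fold change of −3.05 ± 0.60. In both tissues every SN-011 sample was below every control. The adjusted p-values in edgeR were 0.0618 and 0.263. In the tongue the test without control replicate 1 gave an adjusted p in edgeR of 0.0162 with a log2 fold change of −3.08, and over the 14 alternatives the adjusted p ran from 1.98e-06 in DESeq2 to 0.714. No heart or muscle sample after SN-011 had more than 4 *Chil4* counts.

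*Chil3* had higher means after SN-011 in every tissue. In the stomach it was too low to test, at 10, 9 and 8 counts and then 25, 1 and 29, with overlap. Its counts were 60, 29 and 93 in the heart controls and 99, 86 and 106 after SN-011, a log2 fold change of 0.88 ± 0.33. In the tongue they were 31, 50 and 10 and then 126, 58 and 65, a log2 fold change of 1.45 ± 0.59. In both tissues every SN-011 sample was above every control in CPM, and the adjusted p-values in edgeR were 0.163 and 0.389. In the muscle the counts were 10, 6 and 20 and then 53, 1 and 39, with 1.60 ± 1.19, the 1 being the library with counts on few genes. Without that library the log2 fold change was 2.15 (edgeR, adjusted p = 0.0480), and over all alternatives that gave a value the adjusted p ran from 0.0480 to 0.913. Macrophages and neutrophils are known to express *Chil3*. The summed level of 8 macrophage genes was 1174 to 1564 CPM in the heart controls and 1092 to 1597 CPM after SN-011. In the muscle it was 496 to 574 CPM and then 559 to 741 CPM, with overlap. There 4 of the 8 genes were higher at an unadjusted p under 0.05, beside 8.96% of all muscle genes, and 0 passed the adjusted threshold in edgeR. In the tongue the macrophage sum was 467 to 1192 CPM and then 682 to 860 CPM. The sum of 8 neutrophil genes in the tongue was 3.32, 3.32 and 309 CPM in the controls and 2.03 to 5.04 CPM after SN-011. The part of these cell types in the *Chil3* values was not tested.

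*Retnla* (chr16:48842551-48844461, plus strand) was highest in tongue and muscle, at 17.2 ± 8.52 and 13.3 ± 7.29 CPM in the controls, which overlapped, and at 0.208 ± 0.360 CPM in the heart it was near the floor. In the muscle its counts were 181, 206 and 61 in the controls and 420, 319 and 376 after SN-011, a log2 fold change of 1.62 ± 0.47 without overlap (edgeR, adjusted p = 0.224). DESeq2 and edgeR's exact test put this under the threshold, with adjusted p-values of 0.0281 and 0.0474. Adipose tissue is a known source of *Retnla*, and the summed level of 4 adipocyte genes was 1031, 11.3 and 346 CPM in the muscle controls and 1162, 199 and 1035 CPM after SN-011. The part of adipocytes, and of the macrophage genes given above, in the *Retnla* values was not tested. In the stomach *Retnla* counts were 111, 45 and 29 and then 63, 28 and 63, and in the tongue 501, 368 and 144 and then 201, 320 and 202. Both overlapped, with log2 fold changes of −0.49 ± 0.68 and −0.44 ± 0.43. The stomach value was 0.50 without control replicate 1.

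**Figure D5:**
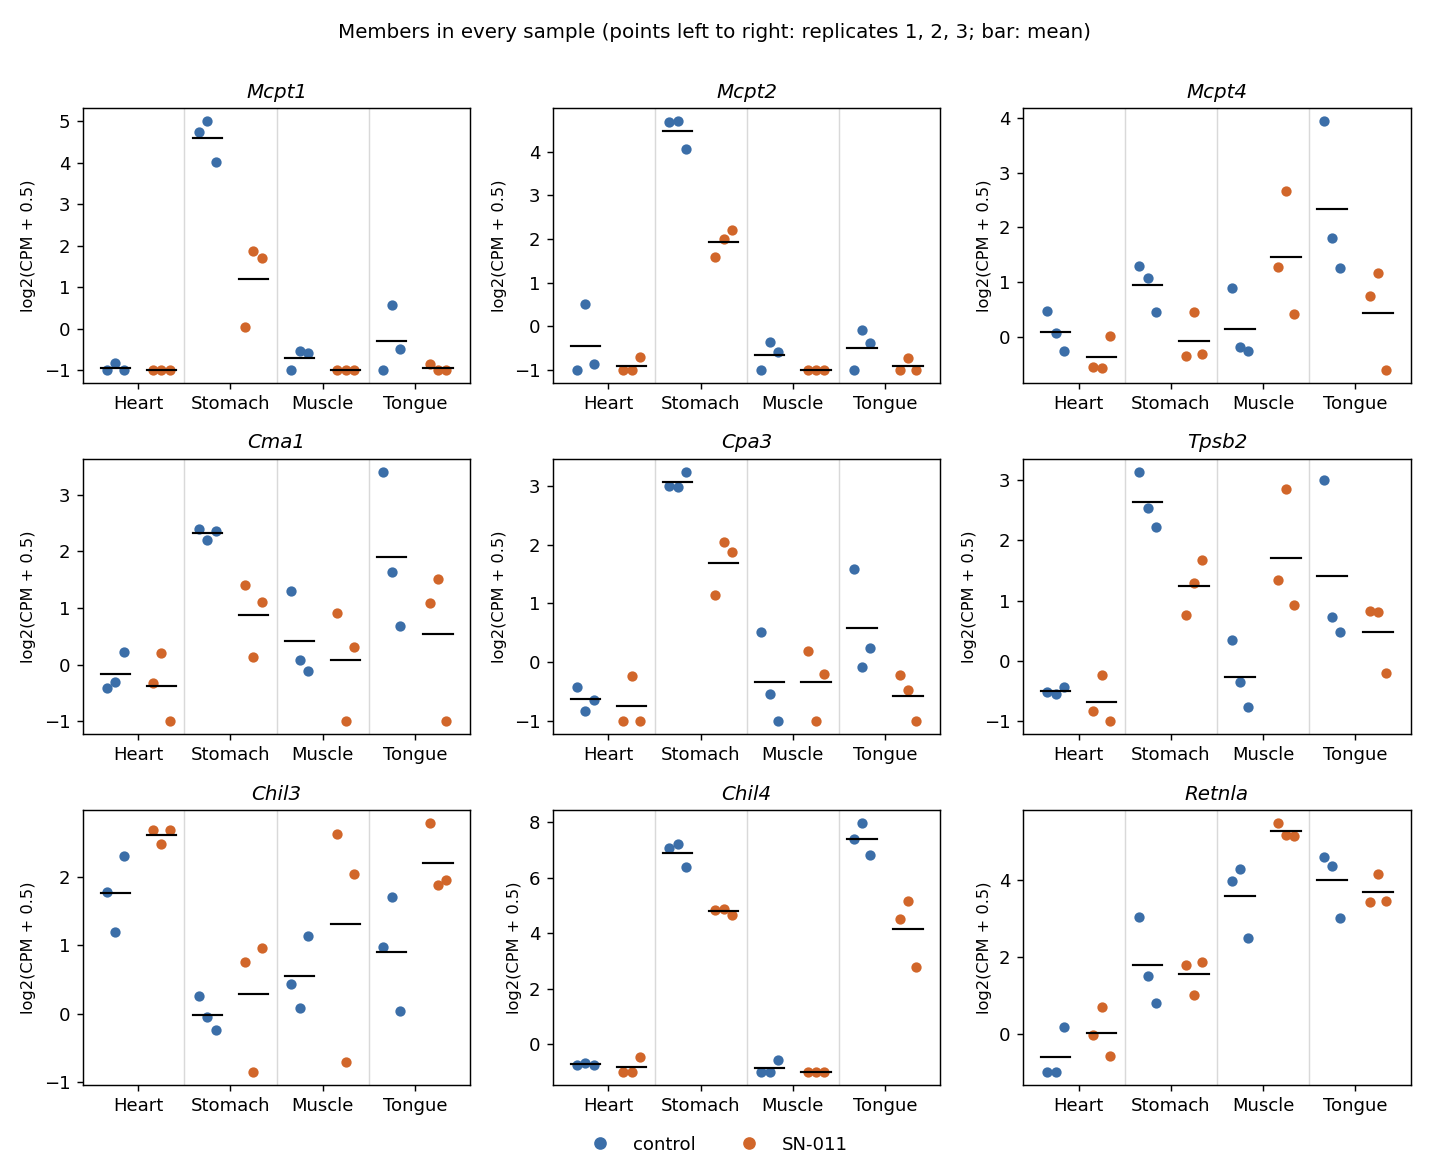
Each panel is 1 member, with log2 of CPM plus 0.5 on the y axis and the 4 tissues on the x axis, and each point is 1 sample in the order of replicate 1 to 3, with a bar at the mean of each group. *Mcpt1* and *Mcpt2* stand out in the stomach and *Chil4* in stomach and tongue, and these are lower after SN-011, with stomach *Mcpt1* at 24.7 and 2.14 CPM.

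In the muscle 4 of the 9 members were tested, and in the tongue 6. None had an adjusted p under 0.05 in edgeR, where 0.0141% of all muscle genes and 0% of all tongue genes did. In the muscle 2 members, *Tpsb2* and *Retnla*, had an unadjusted p under 0.05 and a higher level, as 8.96% of all genes had. The same 2 had all SN-011 samples above all controls, as 11.5% of all genes had. *Tpsb2* was tested there only because its SN-011 samples passed the filter, so its place among these 2 follows in part from that choice. In the tongue 2 members, *Mcpt4* and *Chil4*, had an unadjusted p under 0.05 and a lower level, and the same 2 had all SN-011 samples below all controls, beside 7.33% and 7.92% of all genes. One, *Chil3*, was higher by each of these criteria, beside 5.17% and 9.80% of all genes. In the heart the 1 member tested, *Chil3*, had an adjusted p above 0.05 in edgeR, where 0.848% of all genes were under it, an unadjusted p under 0.05 and a higher level, as 10.8% had, and no overlap, as 13.8% had. DESeq2 put 1 member under the threshold in the muscle, *Retnla*, and 1 in the tongue, *Chil4*, and the share of all genes that it put there is not given here.

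Of 5 other genes of the chitinase family tested in the stomach, 3 were higher and 1 lower after SN-011 at an unadjusted p under 0.05. None passed the adjusted threshold in edgeR. Of all stomach genes 11.4% were lower at that unadjusted p, and the share that was higher is not given here. *Chia1*, the acidic mammalian chitinase, was at 66.9, 2.92 and 37.0 CPM in the stomach controls and at 167, 2634 and 94.3 CPM after SN-011. Its SN-011 mean of 965 CPM rested on replicate 2, without which it was 131 CPM. *Chit1*, the chitotriosidase, averaged 10.7 ± 5.85 and 28.0 ± 10.8 CPM. *Chil1*, the chitinase-like protein also called BRP-39, was at 0.809 ± 0.195 and 3.31 ± 0.764 CPM in the stomach. For these 3 every SN-011 stomach was above every control, whereas *Chil4* was below, and the adjusted p-values in edgeR were 0.118, 0.129 and 0.0796. In the tongue *Chil1* was at 3.03, 35.5 and 359 CPM in the controls and at 2.55, 7.62 and 1.98 CPM after SN-011, so the groups overlapped and the high control mean came from replicate 3 (edgeR, adjusted p = 0.327). Of the resistin family *Retn*, resistin itself, was at 33.8 ± 42.3 and 46.8 ± 33.5 CPM in the muscle, and *Retnlb* had no counts in any group.

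Type 2 cytokines were scarce. *Il9* and *Il3* had no counts, and *Il5* and *Il13* averaged at most 0.437 CPM in every group. *Il4* averaged 1.21 CPM in the stomach controls and 1.40 CPM after SN-011. *Il33*, the epithelial alarmin that acts on mast cells through *Il1rl1*, averaged 98.8 ± 27.6 CPM in the stomach controls and 43.1 ± 32.4 CPM after SN-011, and 32.7 ± 21.8 and 9.35 ± 2.28 CPM in the tongue, with overlap in both and adjusted p-values in edgeR of 0.199 and 0.335. *Areg*, amphiregulin, a growth factor released by type 2 lymphoid cells and mast cells, was at 44.4 ± 16.7 and 16.5 ± 10.3 CPM in the stomach. Its groups there did not overlap (edgeR, adjusted p = 0.163). The receptor chain gene *Il13ra1* was at 39.6 ± 7.24 and 31.997 ± 1.65 CPM there. The signalling genes *Stat6* and *Il4ra* were at 89.96 ± 9.63 and 46.8 ± 14.1 CPM in the stomach controls and at 88.0 ± 7.11 and 69.6 ± 11.9 CPM after SN-011. Of the 19 genes on this list 12 were tested in the stomach, with 0 past the adjusted threshold in edgeR and 2 lower at an unadjusted p under 0.05. In the tongue 11 were tested, with 0 and 4. Of all genes, 11.4% in the stomach and 7.33% in the tongue were lower at that unadjusted p.

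Effector genes of type 2 activation were mixed. *Arg1*, the arginase of alternatively activated macrophages, averaged 2.45 ± 1.05 CPM in the stomach controls and 34.0 ± 24.7 CPM after SN-011, with every SN-011 sample above every control and an adjusted p in edgeR of 0.0648. *Alox15*, which makes lipid mediators, averaged 61.3 ± 14.3 CPM in the tongue controls and 21.1 ± 9.35 CPM after SN-011. In the muscle it averaged 15.9 ± 10.7 and 0.354 ± 0.373 CPM. Neither tissue had overlap, and the adjusted p-values in edgeR were 0.267 and 0.153. Of all tongue genes 7.92% had all SN-011 samples below all controls, and the share in the muscle is not given here. Of the 14 genes on this list 10 to 12 were tested in each tissue and 0 passed the adjusted threshold in edgeR. At an unadjusted p under 0.05 the heart had 3 higher and 4 lower and the stomach 2 and 0. The muscle had 1 and 2 and the tongue 0 and 5. Of all genes, 10.8% in the heart and 8.96% in the muscle were higher by this measure. In the stomach 11.4% were lower, and in the tongue 5.17% were higher and 7.33% lower. The other shares are not given here. The most abundant of the list, *Clca1*, *Mrc1* and *Cish*, overlapped between the stomach groups, with means of 183, 12.5 and 22.4 CPM in the controls and 111, 26.5 and 26.1 CPM after SN-011. Among all lists of pathway genes and other cell types, *Dclk1* in the heart, a kinase of tuft cells and neurons, was the only gene past the adjusted threshold, at 12.03 ± 2.78 and 3.40 ± 0.915 CPM (edgeR, adjusted p = 0.0281).

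The members did not vary as 1 group within the conditions. Over deviations from the 8 group means in 24 samples, on log2 of CPM plus 0.5, *Mcpt4* and *Tpsb2* were most alike, with Pearson's r of 0.87, followed by *Cma1* and *Cpa3* at 0.69 and *Mcpt1* and *Mcpt2* at 0.60. Both *Mcpt4* and *Tpsb2* were highest of their groups in tongue control replicate 1 and in muscle SN-011 replicate 2. Their r without these libraries is not given. Between the classes *Mcpt1* and *Mcpt2* had r of −0.40 to −0.11 with the 4 connective-tissue proteases. *Chil3* and *Chil4* had r of 0.21. These are descriptions over samples that may share animals, at low counts, and most of the deviations of *Mcpt1* and *Mcpt2* outside the stomach were of a few counts.

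Of the 18323 other genes with a mean of at least 1 CPM in some group, those nearest to *Mcpt2* in the same measure were *Tspan1*, *Nr1i2* and *Slc44a4*, with r of 0.93, 0.92 and 0.91. Those nearest to *Mcpt1* were *Galntl6*, *Pon2* and *Fut4*, with r of 0.89 each. *Nop56* was nearest both to *Mcpt4*, at 0.92, with *Pitx3* and *Cabyr* next at 0.84 and 0.77, and to *Tpsb2*, at 0.89, with *Mthfsl* and *Psen2* at 0.83 each. *Gm38534*, *Armcx5* and *Ptgfr* were nearest to *Cma1*, at 0.86, 0.84 and 0.83, and *Adpgk*, *Scaf8* and *Cep152* to *Cpa3*, at 0.84, 0.80 and 0.79. *Napsa*, *Ptpro* and *Gbp2* were nearest to *Chil3*, at 0.92, 0.92 and 0.89, or 0.88, 0.87 and 0.83 without the second SN-011 library of the muscle. *Gm12766*, *Lactb* and *Atp5k-ps2* were nearest to *Chil4*, at 0.77, 0.75 and 0.74, and *Naip1*, *Ltc4s* and *2510017J16Rik* to *Retnla*, at 0.82, 0.78 and 0.78.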

How the data were processed

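The data were RNA-Seq libraries of 4 tissues, with 3 samples in each of the 8 groups that the labels give. The authors deposited raw counts of read pairs per gene, not normalized. The submitters' processing notes name HISAT2, HTSeq and mm10, whereas the methods of the study name featureCounts and uniquely mapped pairs. Of 54532 gene identifiers, 54495 are in GENCODE M21 (GRCm38), used for symbols, positions and exonic length. The members and gene lists were chosen with earlier results of these data known. Nothing in the labels says which samples share a mouse, so p-values measure the spread between these samples.

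A separate model was made for every tissue with edgeR 4.0.16 under R 4.3.3, using TMM, filterByExpr (minimum count 10, minimum total 15), a prior count of 0.125, the quasi-likelihood test and Benjamini-Hochberg adjustment over all genes tested (threshold 0.05). Differences between tissues came from a joint fit. The SE is the log2 fold change divided by the root of F. CPM used TMM over 24 samples. Fits were checked on simulated data. Alternatives were other size factors, no filter, at least 10 counts in every sample, DESeq2 1.42.0, edgeR's exact test, the joint fit, the replicate block and leaving out each sample, and for levels and ratios other scalings and members. The floor of 3 counts covers counting error only, whereas the SD and the SE also take in the spread between samples. Named genes are the members, *Trex1*, *Kit*, *Fcer1a*, *Ms4a2*, list genes past the threshold, up to 3 most abundant genes of each pathway list, with marker lists given as sums, and the 3 nearest patterns. Others (*Gata2*, *Rgs13*, *Mrgprb2*, *Tpsab1*, *Il33*, *Il4*, *Il5*, *Il13*, *Il9*, *Il3*, *Areg*, *Arg1*, *Alox15*, *Chil1*, *Retnlb*, *Msln*, *Wt1*, *Krt5*, *Gkn1*, *Atrip*, *Xist* and *Ddx3y*) were named after their values were seen. Python 3.11.15, pandas 2.3.3, numpy 2.4.6, Biopython 1.88 and matplotlib 3.10.9 were used.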

Additional observations from a re-analysis of the deposited data

Results flagged for a closer look

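The SN-011 change of *Tpsb2* differed between stomach and muscle by −4.73 on the log2 scale (stomach minus muscle). This came from a test of the difference itself, the edgeR interaction over 24 samples, with an adjusted p of 0.0314. In this pair 1 of 9 members passed, near the share of 6.95% among all genes, and no other member passed in any pair. *Tpsb2* averaged 5.94 and 1.95 CPM in the control and SN-011 stomachs and 0.377 and 3.38 CPM in the muscle, with 3 samples in each group. The largest muscle value, 60 counts, came from the SN-011 library with counts on 11546 genes. Leaving that library out gave −3.76 with an adjusted p in edgeR of 0.0623. Leaving out control replicate 1, SN-011 replicate 1 or SN-011 replicate 3 of the stomach, or control replicate 2 or 3 of the muscle, also brought the adjusted p over the threshold, to between 0.0571 and 0.0949.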

How the results depend on the processing

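No member passed the adjusted threshold in any tissue as reported. In the stomach the number that did was 3 without the filter (*Chil4*, *Mcpt1*, *Mcpt2*), 3 with at least 10 counts in every sample, 6 in DESeq2, 5 in edgeR's exact test, 2 in the joint fit and 0 to 2 when 1 sample was left out. In the muscle it was 1 in DESeq2, 1 in the exact test and 0 to 1 with 1 sample left out. In the tongue it was 1 without the filter, 1 in DESeq2, 1 in the exact test, 1 in the joint fit and 0 to 1 with 1 sample left out. The cause was not tested, and the share of all genes that passed under each alternative is not given here. Control and SN-011 samples of the same number in a tissue had correlations of −0.467 to 0.292. With 3 samples per group these values cannot show whether the numbers pair the samples. With the replicate block 3 stomach members passed, and in the joint fit with a replicate block, same-numbered samples taken as 1 mouse, 2 differences between tissues passed in place of 1. Leaving out 1 sample gave 0 to 1 such differences. Without *Cpa3* the log2 ratio of mucosal to connective-tissue proteases was 2.27 in the stomach controls and 0.72 after SN-011. The sign of 1 fold change turned, *Retnla* in the stomach, to 0.50 without control replicate 1, within a range of −0.91 to 0.50 when 1 sample was left out. Of the other 258 values of members' fold changes under alternatives, 226 kept their side of the threshold and 32 passed it. Depth limits *Mcpt1*, *Mcpt2* and *Chil4* outside the tissues named and most proteases in the heart.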
